A study of Mus musculus with 2 samples.

Results

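The cells described here were defined by a high value of Arg1 and low values of the C1q genes, and 309 of 9773 tumor cells met the definition. A cell was a member when Arg1 lay more than 1 above the gene's lowest fl/fl value on the deposited score scale, and when fewer than 2 of C1qa, C1qb and C1qc, fewer than 2 of the keratins Krt8, Krt18 and Krt19, and fewer than 2 of the neutrophil genes Csf3r, Cxcr2 and Retnlg did so. There were 150 members among 4577 cKO cells and 159 among 5196 fl/fl cells. The values of these 10 genes chose the members, so their levels below are a description.

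The study used single-cell RNA sequencing of mouse pancreatic tumors to compare mice in which LysM-Cre deletes Ahr, the aryl hydrocarbon receptor, with mice that keep it. The cKO library came from C57/BL6 Ahr fl/fl mice that also carry LysM-Cre, and the fl/fl library from C57/BL6 Ahr fl/fl mice without Cre. LysM-Cre is expressed from the Lyz2 locus and acts mainly in macrophages, monocytes and neutrophils. All mice had received MT4, an organoid line of KPC pancreatic adenocarcinoma, in the pancreas, and tumors were taken at day 14. Each library pooled the tumors of 3 mice, live cells were sorted by DAPI exclusion, and there was 1 10X Genomics library per genotype. No difference between genotypes therefore has a replicate, and none was tested.

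Arginase 1 splits arginine into ornithine and urea, which removes the amino acid that T cells and nitric oxide synthase also use. Macrophages that express it are common in pancreatic tumors and are often found with genes of low oxygen, wound repair and matrix. C1q, the starting protein of the classical complement pathway, marks another tumor macrophage state that tends to express Apoe and MHC class II. In mice Arg1 lies at chr10:24915221-24927484 on the minus strand and Fn1, the gene of the matrix protein fibronectin, at chr1:71585520-71653200 on the minus strand (GRCm38).

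The deposited table held 2000 genes. In the fl/fl library its values could be read back as whole counts of unique molecular identifiers (UMIs), 1 per captured transcript. Fl/fl levels are therefore given as UMIs per 10000 UMIs of the 2000 genes, with intervals that cover counting error only. The 159 fl/fl members had a median of 524 such UMIs, with 92.9 at the 5th and 2229 at the 95th percentile, against 427 in C1q-high cells and 285 in all fl/fl cells. Members showed a median of 142 genes above zero and C1q-high cells 149. In the cKO library the values appear to have been moved toward the fl/fl library, so cKO levels are given on the score scale only. This shift was inferred from the values, and no source states it.

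The 2 libraries shared 656 cell barcodes, which were 14.3% of cKO and 12.6% of fl/fl cells. The cells of a shared barcode lay a median of 0.252 UMAP units apart, against 2.40 for different barcodes of this set. For 82.3% of these barcodes the same-barcode cell was also the most alike of all cKO cells with a shared barcode, by Pearson correlation over genes. These cells sat together on the UMAP, where 87.3% of the 15 nearest cells of a shared-barcode cKO cell and 83.2% of those of a shared-barcode fl/fl cell had a shared barcode too. Among the members, 34 cKO and 30 fl/fl cells had a shared barcode, and 19 barcodes were members in both libraries. Whether such a pair is 1 cell listed in both libraries or 2 cells cannot be told apart from these files, so the count of 309 may hold some cells more than once and the genotype of these cells is uncertain. Results are given with and without them.

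**Figure D1:**
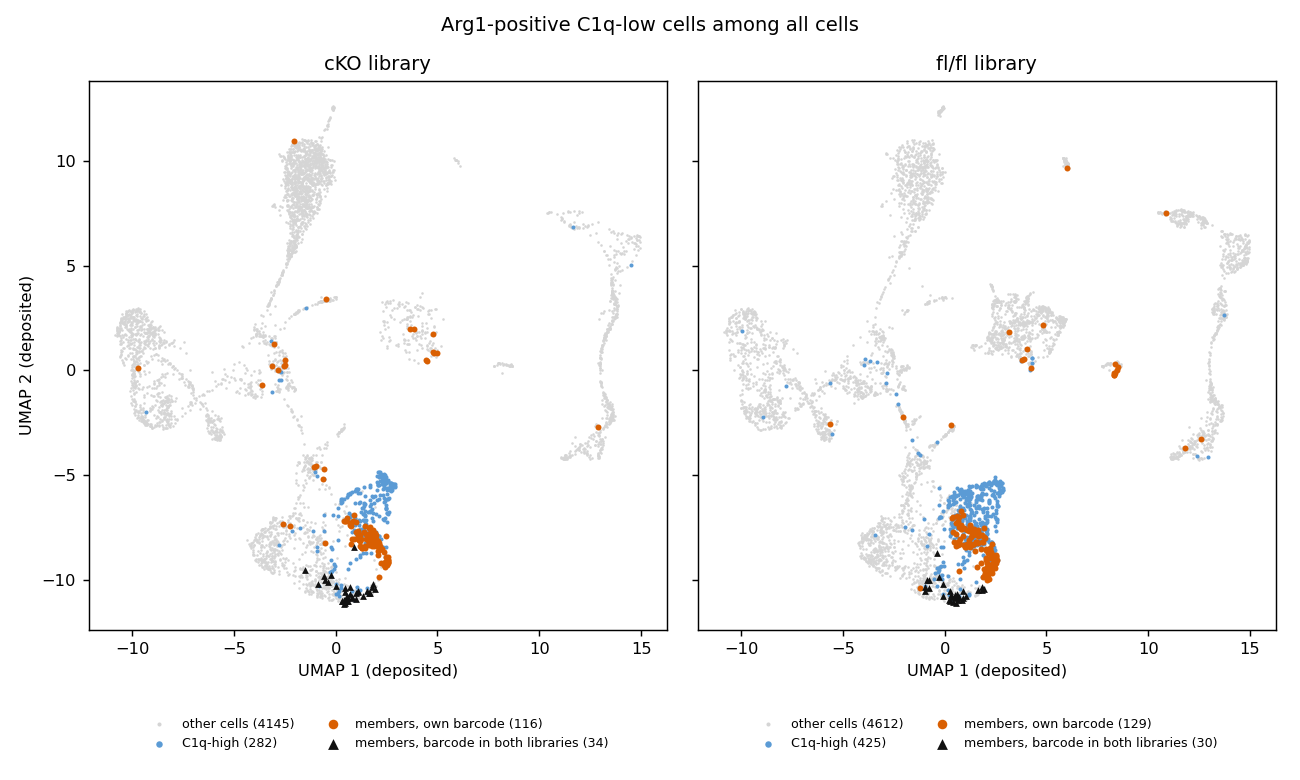
Deposited UMAP coordinates (arbitrary units on both axes) of every cell, with the cKO library on the left and the fl/fl library on the right. Orange points are members with a barcode of their own (116 cKO, 129 fl/fl), black triangles are members whose barcode is in both libraries (34 cKO, 30 fl/fl), blue points are C1q-high cells and grey points are all others. Most orange points adjoin the blue ones, and the triangles form a separate patch at the lower edge.

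The members were not a single population. In the fl/fl library 108 of 159 lay among macrophages, meaning that at least 8 of their 15 nearest fl/fl cells on the UMAP were members or C1q-high cells, and none of these 108 had a shared barcode. In the cKO library 93 of 150 lay among macrophages, and 3 of them had a shared barcode. Of the nearest cells of these members, 44.1% were members and 43.5% C1q-high cells in fl/fl, and 61.7% and 31.3% in cKO. The words among macrophages therefore rest in part on the members themselves. Of the members that lay elsewhere, 31 of 57 cKO and 30 of 51 fl/fl cells had a shared barcode. The remaining 21 fl/fl members were scattered over the map. Of the members that lay elsewhere, 4 cKO and 9 fl/fl cells had 3 or more markers of a non-myeloid type above 1.

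The 108 fl/fl members among macrophages carried the marker pair of the label. Arg1 reached 403 UMIs per 10000 in them, against 139 in the 30 members with a shared barcode and 86.2 in the 21 scattered ones. Per cell, Arg1 counts in the 108 ran from 1 to 170 UMIs with a median of 13.5, those in the 30 from 3 to 42 with a median of 11, and those in the 21 from 1 to 6 with a median of 2. Fn1 was at 205, 26.4 and 14.1 UMIs per 10000 in the same 3 groups. Fn1 was thus high in the members among macrophages and low in the others. Csf1r, the receptor for the macrophage growth factor CSF1, was found in 58.3% of the 108 and 46.7% of the 30, against 1.45% of T cells. It had no UMI in the 21, which allows a share of up to 14.3%, at a median depth of 267 UMIs. Because the members differ in this way, the whole set is called by its rule here.

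Other genes split the members the same way. AA467197, also known as Nmes1, was at 108 UMIs per 10000 in the members among macrophages, 1.16 in those with a shared barcode and 15.7 in the scattered ones. Slc7a2, a transporter that brings arginine into the cell, was at 11.2, 0.29 and 0.00, where the 0.00 is a count of 0. Cells with a shared barcode instead had high Cxcl2, a chemokine that attracts neutrophils, at 405 UMIs per 10000, against 50.9 in members among macrophages. They also had more Fth1, the heavy chain of ferritin, at 2060 against 960, more Hmox1, which degrades heme, at 119 against 42.5, and more Cd14, a receptor for bacterial lipopolysaccharide, at 85.2 against 26.6. The immediate-early gene Nr4a2 was at 8.99 against 0.72. In the 21 scattered cells Hbb-bs, a beta globin gene, made up 2606 UMIs per 10000, against 18.9 in the 108.

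Within the members Arg1 varied in step with Fn1. Over the 159 fl/fl members the 5 genes with the highest Spearman correlation with Arg1 were Fn1 (0.38), the chemokine Ccl6 (0.36), AA467197 (0.32), Fam162a (0.30), a mitochondrial gene known to respond to low oxygen, and Pgk1 (0.27), a glycolytic kinase. These are descriptions of cells of 1 library, since the UMAP groups above differ in the same genes. Arg1 had a correlation of 0.09 with the UMIs per cell. In the 53 members with the highest Arg1 score, Fn1 was at 215 UMIs per 10000, against 44.8 in the 53 with the lowest. Members with 1 C1q gene above 1, of which there were 27 in cKO and 43 in fl/fl, had fewer UMIs, with a median of 243 in fl/fl, against 628 in fl/fl members with none. H2-Ab1, a chain of MHC class II, was at 177 UMIs per 10000 in these 43 fl/fl cells, against 89.1 in the 116 with none.

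Cells lay on both sides of the definition's limits. Arg1 lay at most 0.25 above the limit in 19 cKO and 26 fl/fl members, while 18 cKO and 34 fl/fl cells that met every other criterion lay at most 0.25 under it. Of the Arg1-positive cells, 114 cKO and 179 fl/fl cells had 2 or more C1q genes above 1, 8 cKO and 7 fl/fl cells had 2 or more keratins, and 2 cKO and 1 fl/fl cells had 2 or more neutrophil genes. An Arg1 UMI was present in 606 fl/fl cells (11.7%). It was present in 3.3% of T cells, which had a median depth of 223 UMIs and should lack the gene. A C1qb UMI was present in 44.0% of fl/fl members, against 98.6% of C1q-high cells and 4.89% of T cells. The rule used C1qb, and members had more UMIs per cell than T cells, so these shares are a description. The summed C1q count per cell had a median of 1 UMI in members and 22 in C1q-high cells, and 75 fl/fl members had none.

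Members were 3.28% of cKO cells (exact 95% interval 2.78 to 3.83) and 3.06% of fl/fl cells (2.61 to 3.57), and 2.96% of cKO and 2.84% of fl/fl cells without the shared barcodes. Among Arg1-positive cells they were 55.4% in cKO (49.2 to 61.4) and 46.4% in fl/fl (41.0 to 51.8). Among members and C1q-high cells together they were 34.7% in cKO (30.2 to 39.4) and 27.2% in fl/fl (23.7 to 31). C1q-high cells were 6.16% of cKO (5.48 to 6.90) and 8.18% of fl/fl cells (7.45 to 8.96), and these intervals do not overlap. The cKO share rests on fl/fl zero levels applied to values that appear to have been moved, and it was not repeated with cKO zero levels. Without the shared barcodes the member share of both sets together was 32.1% in cKO (27.3 to 37.2) and 25% in fl/fl (21.3 to 28.9). The intervals of the 2 libraries overlap for each of these member shares. With cKO zero levels taken from the nearest cKO cells they did not overlap for 2 of the 3 shares. With these levels members were 69.2% of Arg1-positive cKO cells (62.2 to 75.6) and 40.4% of cKO members and C1q-high cells (35.1 to 45.9). That step changed the rule genes of cKO cells alone, with no limit on how often a gene was detected. It can therefore remove real C1q signal near macrophages, and the 2 libraries then follow unlike definitions. This lack of overlap cannot show a difference between them. All intervals cover counting error and not the spread between mice.

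**Figure D2:**
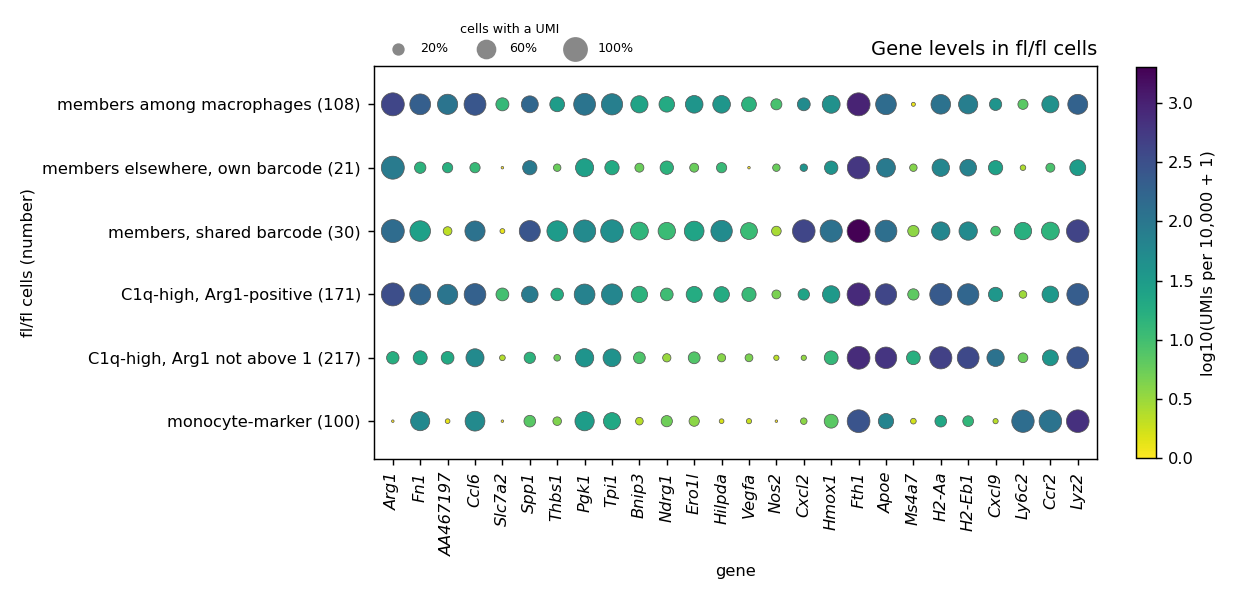
Level of genes in 6 sets of fl/fl cells, with genes along the horizontal axis, sets down the vertical axis, color for log10(UMIs per 10000 + 1) and dot size for the percent of cells with a UMI. The upper 3 sets are members (108 among macrophages, 21 scattered, 30 with a shared barcode), and the lower 3 are C1q-high cells with and without Arg1 above 1 and monocyte-marker cells, all with barcodes of their own. Arg1, Fn1 and AA467197 are high in the top row and in Arg1-positive C1q-high cells, and Apoe and the MHC class II genes are higher in both C1q-high sets.

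Set against C1q-high cells, fl/fl members had more transcript of glycolysis, hypoxia and matrix genes and less of Apoe and MHC class II. Members and C1q-high cells were separated on these same cells, so the following differences carry no test. Of 748 genes, 34 (4.55%) were higher in members by 0.5 or more on the score scale, Arg1 among them, and 28 (3.74%) were lower, the 3 C1q genes among them, so that 8.29% passed in either direction. Without the shared barcodes 31 of 733 (4.23%) were higher and 30 (4.09%) lower. Of the genes higher with all cells 25 were also higher without the shared barcodes, and of the lower ones 27. The values that follow leave out the shared barcodes, with 129 members and 388 C1q-high cells.

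Some genes of hypoxia and glycolysis were among those higher in members. With all cells 7 of 16 list genes were higher and 0 lower, with a median difference of 0.46, against -0.01 over all genes. Without the shared barcodes it was 6 of 16, with a median of 0.42. Pgk1, a kinase of glycolysis, was at 100.3 UMIs per 10000 in members and 54.4 in C1q-high cells, a ratio of 1.84 (1.70 to 2.00). Ndrg1, a stress gene that low oxygen turns on, was at 18.6 in members and 6.02 in C1q-high cells, a ratio of 3.08 (2.50 to 3.80). Ero1l, an oxidase of protein folding, was at 34.5 in members and 12.2 in C1q-high cells, a ratio of 2.82 (2.43 to 3.27). Bnip3, which marks mitochondria for removal, was at 21.9 in members and 10.8 in C1q-high cells. Vegfa, the growth factor of blood vessels, was at 13.2 in members and 7.27 in C1q-high cells. Tpi1, an enzyme of glycolysis, was at 72.4 in members and 51.6 in C1q-high cells. Hilpda, a lipid droplet gene, was at 34.6 in members and 10.6 in C1q-high cells, and its score difference was 0.45, under the limit, against 0.65 with all cells.

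Hypoxia-inducible factors bind a short core sequence, and the promoters of 3 of these genes are shown because they hold that sequence. The windows run from 250 bases before to 50 after the transcription start (RefSeq, GRCm38.p6). Capitals mark ACGTG or GCGTG on either strand, which read CACGT or CACGC on the other strand, and ACGTG and CACGT overlap where they make CACGTG. The Pgk1 window is chrX:106186850-106187149 on the plus strand and holds 2 matches, the Bnip3 window is chr7:138909457-138909756 on the minus strand and holds 5, and the Hilpda window is chr6:29272238-29272537 on the plus strand and holds 1.
Pgk1: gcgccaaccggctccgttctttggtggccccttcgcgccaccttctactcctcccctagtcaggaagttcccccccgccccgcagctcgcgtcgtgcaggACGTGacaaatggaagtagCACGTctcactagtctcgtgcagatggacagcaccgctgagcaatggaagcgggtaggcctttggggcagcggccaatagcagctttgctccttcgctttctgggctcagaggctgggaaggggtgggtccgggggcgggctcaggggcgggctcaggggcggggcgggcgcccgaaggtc
Bnip3: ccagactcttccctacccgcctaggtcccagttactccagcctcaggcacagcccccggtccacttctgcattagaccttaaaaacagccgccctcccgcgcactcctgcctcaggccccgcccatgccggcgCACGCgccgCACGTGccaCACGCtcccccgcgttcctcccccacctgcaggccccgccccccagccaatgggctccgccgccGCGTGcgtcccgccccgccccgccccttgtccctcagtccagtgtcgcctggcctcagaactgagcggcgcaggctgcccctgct
Hilpda: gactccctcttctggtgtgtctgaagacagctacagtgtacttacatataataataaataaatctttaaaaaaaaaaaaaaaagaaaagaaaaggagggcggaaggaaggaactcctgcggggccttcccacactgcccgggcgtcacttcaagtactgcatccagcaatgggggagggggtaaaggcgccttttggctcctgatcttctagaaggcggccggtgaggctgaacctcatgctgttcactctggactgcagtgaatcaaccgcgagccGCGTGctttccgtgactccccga

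Of the 16 hypoxia and glycolysis genes measured, 14 matched a promoter in the RefSeq table, and 12 of the 14 held at least 1 match (85.7%). Over all 27025 promoters of the table the share was 43.8%, and over the 1481 promoters of measured genes 52.5%. Among the 5 matched genes that were higher in members with all cells, 3 held a match, and Tpi1 and Vegfa had none in this window. A match of these letters is a description of the sequence and does not show binding.

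Some matrix and protease genes were higher in members. With all cells 7 of 17 passed the limit and 0 were lower by as much, with a median difference of 0.35, and without the shared barcodes 7 of 17, with a median of 0.41. Fn1 was at 192 UMIs per 10000 in members and 98.6 in C1q-high cells, a ratio of 1.94 (1.83 to 2.06). Spp1, the secreted matrix protein osteopontin, was at 158 in members and 51.4 in C1q-high cells, a ratio of 3.08 (2.87 to 3.3). Thbs1, thrombospondin 1, was at 28.4 in members and 11.3 in C1q-high cells, and the large proteoglycan Vcan at 9.12 in members and 2.56 in C1q-high cells. Adam8, a membrane protease, was at 13.5 in members and 5.62 in C1q-high cells. The coagulation gene F10 was at 27.9 in members and 13 in C1q-high cells. The counts per cell were uneven, since Spp1 ran from 0 to 276 UMIs, with a median of 1, over the 108 members among macrophages.

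Of 5 genes of arginine and polyamine metabolism other than Arg1, 2 were higher in members with all cells and 0 lower, with a median of -0.04. Nos2, the inducible nitric oxide synthase that competes with arginase for arginine, was at 8 UMIs per 10000 in members and 2.42 in C1q-high cells, a ratio of 3.31 (2.38 to 4.6). A Nos2 UMI was found in 20.2% of members and 8.51% of C1q-high cells. Slc7a2 was at 10.5 in members and 5.15 in C1q-high cells.

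The inflammatory list had 2 of 13 genes higher with all cells and 0 lower, with a median of 0.28, and 1 of 13 without the shared barcodes. Cxcl3, a chemokine for neutrophils, had a score difference of 0.55 with all cells and 0.35 without the shared barcodes. Hmox1 was at 42.2 UMIs per 10000 in members and 22.2 in C1q-high cells, with a score difference of 0.51, against 0.72 with all cells. Fth1 had a score difference of 0.53 with all cells and 0.17 without the shared barcodes. These genes were high in the patch of shared-barcode cells. Mt1, a metallothionein that binds zinc and copper, was at 121 in members and 51.5 in C1q-high cells. Of 20 monocyte genes 6 were higher with all cells and 3 without the shared barcodes.

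MHC class II genes and Apoe were lower in members. Of 5 MHC class II genes 4 were lower by 0.5 or more with a median difference of -1, and the same count held without the shared barcodes. H2-Aa was at 110 UMIs per 10000 in members and 349 in C1q-high cells, a ratio of 0.31 (0.29 to 0.33). Apoe, the lipid carrier apolipoprotein E, was at 135 in members and 508 in C1q-high cells, a ratio of 0.27 (0.25 to 0.28). Ms4a7, a membrane gene of mature macrophages, was at 0.44 in members and 10.4 in C1q-high cells. The chemokine Ccl8 had no UMI in the 129 members, which allows up to 0.33 per 10000, and was at 13 in C1q-high cells. Aif1, Cxcl16, Axl, a receptor for dying cells, and Selenop, a selenium carrier, were lower as well, with score differences of -1.02, -0.89, -0.77 and -0.75. Of 17 chemokine and receptor genes 2 were higher and 4 lower, and of 13 lipid-associated genes 2 were higher and 2 lower with all cells.

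In the cKO library the same rule chose both sets, so Arg1 and the 3 C1q genes are left out here. Of the 30 other genes higher in fl/fl members without the shared barcodes, 29 were higher in cKO members than in cKO C1q-high cells and 21 of them by 0.5 or more, against 54.6% and 4.39% of the 729 genes compared. Of the 27 other lower genes all 27 were lower in the cKO library, 22 of them by 0.5 or more, against 45.4% and 6.31% of the 729. Hmox1, with -0.07, was the gene that turned. Pgk1 differed by 0.72, Fn1 by 1.80 and Apoe by -2.24 in the cKO library. The cKO values appear to have been moved toward the fl/fl library by a step that no source describes. The 2 libraries therefore cannot be taken as independent here.

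The nearest set to the members was the C1q-high cells that also had Arg1 above 1. Against these 171 cells, 5 of 750 genes (0.667%) were higher in the 129 own-barcode members, namely Pgk1, Nos2, Ndrg1, Ero1l and Plac8, which were named after their values were seen. Pgk1 was at 100.3 UMIs per 10000 in members and 69.8 in Arg1-positive C1q-high cells, Ndrg1 at 18.6 in members and 9.67 in those cells, and Ero1l at 34.5 in members and 17.3 in those cells. Of the hypoxia and glycolysis genes 3 of 16 were higher, with a median of 0.17. Of the 17 matrix genes 0 were higher and 1 lower, with a median of 0.01. Fn1 was at 192 in members and 173 in Arg1-positive C1q-high cells, with a score difference of -0.34, so the 2 measures differ in sign. In C1q-high cells with Arg1 at most 1, Fn1 was at 21.4. Lower in members were 26 genes (3.47%), including the 3 C1q genes, Apoe with a score difference of -1.13, Ms4a7 with -0.76, H2-Aa with -0.70 and H2-Ab1 with -0.71.

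**Figure D3:**
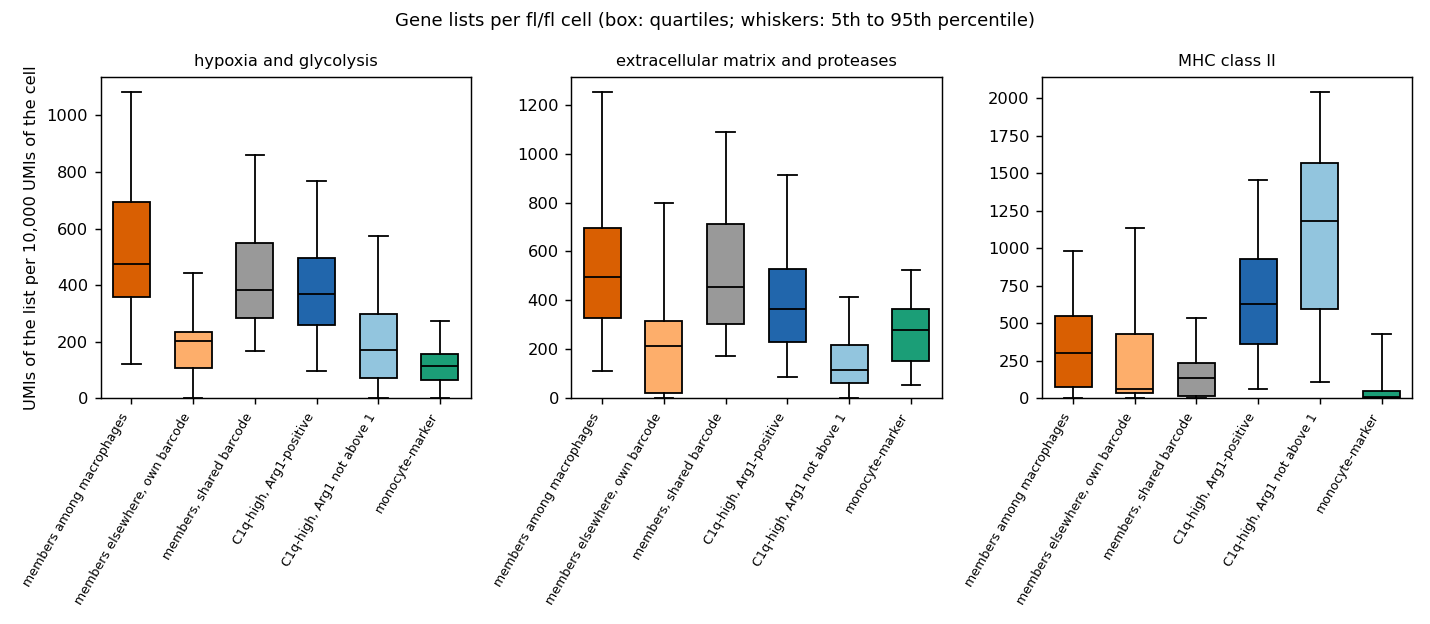
UMIs of 3 gene lists per 10000 UMIs of each fl/fl cell, as boxes (median and quartiles) with whiskers from the 5th to the 95th percentile, for 3 groups of members on the left and 3 other sets on the right. The hypoxia and glycolysis list had a median of 474 in members among macrophages, against 370 in Arg1-positive C1q-high cells and 169 in those with Arg1 at most 1, while the MHC class II list had 303 in members among macrophages, 628 in Arg1-positive and 1183 in the remaining C1q-high cells.

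Per cell, the hypoxia and glycolysis list took a median of 474 UMIs per 10000 in the 108 members among macrophages, with quartiles of 359 and 695. It took 383 in the 30 shared-barcode members and 202 in the 21 scattered ones. In Arg1-positive C1q-high cells the median was 370, with quartiles of 260 and 495, so the boxes overlap. For MHC class II the members among macrophages had a median of 303, with quartiles of 76.0 and 547, and Arg1-positive C1q-high cells 628, with quartiles of 359 and 927. Of these sets and the C1q-high cells with Arg1 at most 1, the last had the lowest median for hypoxia genes, 169, and the highest for MHC class II, 1183.

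Monocytes are the blood cells from which many tumor macrophages arise. Cells used for comparison had 2 or more of 4 measured monocyte markers (Ly6c2, F13a1, Chil3 and Vcan) above 1 and Arg1 at most 1. They also met the C1q, keratin and neutrophil limits of the member definition and had Ccr2 or Csf1r above 1. The last criterion was added after the data were seen. Of 819 genes, 80 (9.77%) were higher in the 159 fl/fl members than in the 218 monocyte-marker cells and 20 (2.44%) lower. With the planned set of 505 fl/fl cells, which lacks the last criterion, 93 of 898 (10.4%) were higher and 49 (5.46%) lower. Without the shared barcodes the narrower set gave 100 cells, and 90 of 912 (9.87%) were higher and 33 (3.62%) lower. Higher in own-barcode members were AA467197, at 101 UMIs per 10000 in members and 0.34 in monocyte-marker cells, and Tgm2, a transglutaminase, at 62.6 in members and 2.64 in monocyte-marker cells. The scavenger receptor Msr1 was at 28.2 in members and 7.35 in monocyte-marker cells, and C3ar1, the receptor for complement C3a, at 18.0 in members and 1.72 in monocyte-marker cells. Of the hypoxia and glycolysis genes 12 of 16 were higher and 0 lower, with a median of 0.79. The comparison cells were chosen by high Ly6c2, F13a1, Chil3, Vcan, Ccr2 or Csf1r, so the values of these genes are affected by the choice. Among these, lower in members were Ly6c2, at 5.67 in members and 136 in monocyte-marker cells, and Ccr2, the receptor that brings monocytes into tissue, at 40.2 in members and 110 in monocyte-marker cells. Not used in the choice was Lyz2, lysozyme, at 177 in members and 689 in monocyte-marker cells. Of 20 monocyte genes, a list that holds genes of the choice, 10 were lower and 2 higher, and Fn1, at 57 in monocyte-marker cells, was lower there than in members.

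Among markers of other cell types, the summed erythroid and neutrophil counts were higher in members than in C1q-high cells. The fl/fl values here are over all 159 members and 425 C1q-high cells, shared barcodes included. All 13 measured macrophage markers had UMIs in at least 5% of fl/fl members, and 116 cKO and 131 fl/fl members had 3 or more of them above 1. That list holds Arg1, which every member has above 1 by the rule, and also the 3 C1q genes and Fn1. These counts are therefore a description and not a test of cell type. All 8 measured monocyte markers and 8 of 12 neutrophil markers also had UMIs in at least 5% of fl/fl members. Neutrophil markers summed to 276 UMIs per 10000 in members and 131 in C1q-high cells. Cxcl2, which was high in the shared-barcode cells, was at 148 in members and 38.4 in C1q-high cells, and S100a8 at 53 and 36.0. The list was mixed. Retnlg was at 9.40 in members and 0.53 in C1q-high cells, and Mmp8 at 2.41 and 0.56. Csf3r was at 1.61 in members and 1.75 in C1q-high cells, and S100a9 at 52.0 and 48.2. Mmp9 had a ratio of 0.68 (0.29 to 1.42). Erythroid genes summed to 275 in members and 20.1 in C1q-high cells, and T cell markers to 5.22 in members and 4.30 in C1q-high cells. In all, 4 cKO and 14 fl/fl members had 3 or more markers of a non-myeloid type above 1. In the fl/fl members these were erythroid markers in 9 cells and acinar markers in 4. The cell cycle list had 0 of 6 genes higher or lower against C1q-high cells. Their part in the differences above was not tested.

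Arg1 had a mean score of 3.29 ± 2.35 in cKO and 3.36 ± 2.37 in fl/fl members (SD over 150 and 159 cells), with values from 1.00 to 10.2 in both libraries. Ahr itself cannot check the deletion in these files, since the labels do not say which exon is removed and a tag outside it would remain. Its mean score was 0.46 ± 1.28 in cKO and 0.38 ± 1.42 in fl/fl members, a difference of 0.08, and -0.05 once the correction was removed. In fl/fl members Ahr had 45 UMIs in all and was found in 15.7% of cells. Of the AHR target and pathway genes measured, Cyp1b1 and Ido1 had 1 UMI each over the fl/fl members, and Scin and Il4i1 had 0, which allows up to 0.24 UMIs per 10000. Lyz2, whose locus drives Cre, was at 0.56 ± 0.70 in cKO and 0.53 ± 0.68 in fl/fl members.

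The cKO values were compared in 2 forms, since they appear to have been moved. In the deposited values 60 of 686 genes (8.75%) were higher by 0.2 or more in cKO members and 32 (4.66%) lower. The shift was estimated from the nearest cKO cells and removed where a gene was detected in fewer than 40% of fl/fl members. Then 55 of 560 genes (9.82%) were higher and 16 (2.86%) lower. Without the shared barcodes it was 98 (14.3%) higher and 48 (7%) lower in the deposited values, and 86 (15.4%) higher and 23 (4.11%) lower with the shift removed. Of the genes past 0.2 in the deposited values, 66 had an estimate with the shift removed, and 32 of these stayed past 0.2 with the same sign while 5 turned. A set of 23 genes was higher and 7 were lower by 0.2 or more in all 4 forms. Every difference was smaller than the SD over cells of at least 1 library, and with 1 library per genotype the spread between mice is unknown.

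Among the genes higher in cKO members in all 4 forms were Tmem119, a membrane protein known from microglia, at 0.63 ± 2.67 in cKO and 0.21 ± 0.98 in fl/fl members, and Ecm1, a secreted matrix protein, at 1.01 ± 2.51 in cKO and 0.64 ± 1.43 in fl/fl members. Socs1, an inhibitor of cytokine signaling, was at 0.53 ± 1.97 in cKO and 0.15 ± 0.79 in fl/fl members. Itgax, the integrin CD11c, was at 0.45 ± 2.00 in cKO and 0.20 ± 0.58 in fl/fl members. Tmem119 was above zero in 6.29%, Socs1 in 7.55% and Ecm1 in 36.5% of fl/fl members. Socs1 differed by 0.10 when members among macrophages alone were compared, and Ecm1 by 0.08 with the definition raised to 1.5, both under the limit of 0.2. The differences of these 4 genes ran from 0.25 for Itgax to 0.42 for Tmem119 in the deposited values, and from 0.46 for Socs1 to 0.79 for Tmem119 with the shift removed and the shared barcodes left out.

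Lower in cKO members in all 4 forms were Tmem37, at 0.27 ± 0.82 in cKO and 0.71 ± 2.08 in fl/fl members, the metalloprotease Mmp12, at 0.88 ± 1.94 in cKO and 1.10 ± 2.74 in fl/fl members, the heat shock gene Hspa1b, at 0.32 ± 1.33 in cKO and 0.67 ± 2.12 in fl/fl members, and the RNA exonuclease Rexo2, at 0.20 ± 0.66 in cKO and 0.49 ± 1.42 in fl/fl members. With the definition lowered to 0.5, Tmem37 differed by -0.196, Hspa1b by -0.17 and Rexo2 by -0.05, all short of the limit, and with a second form of shift removal Hspa1b differed by -0.14. The other 3 were the globin genes Hba-a1, Hba-a2 and Hbb-bt. Hba-a2 differed by -0.31 with all members and by 0.01 once members with 3 or more non-myeloid markers were left out, which included 9 fl/fl members with erythroid markers.

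Several large deposited differences changed in size. Fn1 was at 2.60 ± 2.64 in cKO and 1.99 ± 2.44 in fl/fl members, a difference of 0.61, and 0.89 without the shared barcodes, but it was too frequent for the shift to be estimated, and with the definition lowered to 0.5 the difference was 0.13. Ltc4s, which makes leukotriene C4, differed by 0.59 in the deposited values and by 0.18 with the shift removed. Slc7a2 differed by 0.36 in the deposited values and by -0.14 with the shift removed. Egln3, an oxygen sensor, differed by 0.49 and by 0.19 with the shift removed. The chemokine Ccl2 differed by 0.39, by 0.12 with the shift removed and by 0.17 without the shared barcodes.

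**Figure D4:**
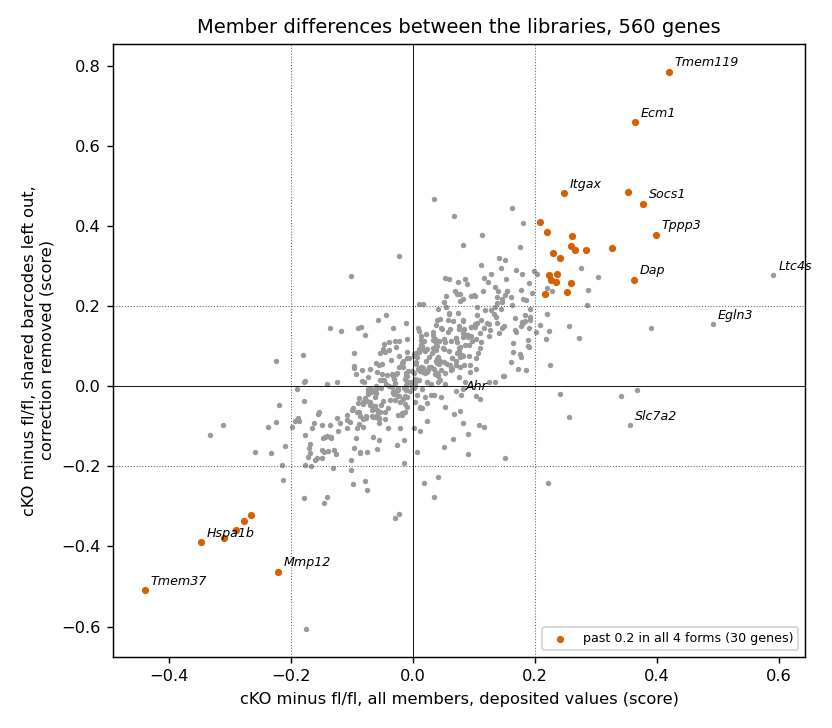
Difference cKO minus fl/fl for 560 genes in members (score), with all members and the deposited values on the horizontal axis and with the shared barcodes left out and the estimated shift removed on the vertical axis. Orange points are the 30 genes past 0.2 in all 4 forms, and dotted lines mark 0.2 in each direction. Tmem119 and Ecm1 lie high on both axes, Tmem37 and Hspa1b low on both, and Slc7a2 and Egln3 lie far to the right but near 0 on the vertical axis.

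By gene list the counts are read against the shares over all genes in the same form. In the deposited values these were 8.75% higher and 4.66% lower, with a median of 0.02. With the shift removed they were 9.82% and 2.86%, with a median of 0.05. Without the shared barcodes they were 14.3% and 7% in the deposited values, with a median of 0.02. With the shift removed as well they were 15.4% and 4.11%, with a median of 0.05. Of 16 hypoxia and glycolysis genes 2 were higher and 3 lower in cKO members in the deposited values, with a median of 0.07, and with the shift removed 0 of 6 passed in either direction. Pgk1 was at 1.66 ± 1.74 in cKO and 2.03 ± 1.6 in fl/fl members, and Ndrg1 at 0.76 ± 1.86 in cKO and 1.06 ± 1.76 in fl/fl members. Of 17 matrix genes 5 were higher and 4 lower, with a median of -0.01, and with the shift removed 1 of 11 was higher and 1 lower. Of 16 chemokine and receptor genes 5 were higher and 0 lower, with a median of 0.09, and with the shift removed 1 of 13 was higher. The MHC class II list had 2 of 5 genes higher, with a median of 0.18, and 5 of 5 without the shared barcodes, with a median of 0.27. It had 0 of 5 with the definition raised to 1.5 and 1 of 5 with it lowered to 0.5. Without the members with 3 or more non-myeloid markers it had 1 of 5. In members among macrophages it had 3 of 5, and in members with no C1q gene above 1 it had 5 of 5. H2-Ab1 was at 0.90 ± 0.95 in cKO and 0.70 ± 0.85 in fl/fl members. With the shift removed 2 of the 5 could be estimated and 0 passed. Ciita, which turns on MHC class II genes, differed by 0.21 in the deposited values and by 0.11 with the shift removed. H2-DMb1 differed by 0.31 without the shared barcodes and by 0.01 once the shift was removed as well. Of 4 complement and complement receptor genes 2 were higher and 0 lower in the deposited values, with a median of 0.14. With the shift removed 2 of 3 were higher, with a median of 0.40, and of 0.48 without the shared barcodes as well. Of 13 inflammatory genes 0 passed 0.2 in either direction in the deposited values with all members. Without the shared barcodes 2 of 13 were lower, with a median of -0.11, against 7% lower over all genes in that form. With the shift removed 0 of 11 passed, with or without the shared barcodes. The dissociation and stress list had 0 of 12 higher and 2 lower, Hspa1b and Atf3.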

How the data were processed

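The data were 1 single-cell library of pooled tumors per genotype. Per the submitters' processing notes, the tools were Cell Ranger 3.0.0 and Seurat 3.1.4, and the genome build was mm10/GRCm38. Each gene of each cell has a scaled score in the deposited table, with a maximum of 10, and the deposited UMAP coordinates are a score too. How cells were filtered and doublets handled is not given in the sources used here. Doublets were not called, and members with 3 or more markers of a non-myeloid type were left out in an alternative. All columns of values were mapped to a library by the end of the cell name, with 0 unmapped.

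The zero level of a gene was its lowest fl/fl value. Whole counts were read from the steps of the fl/fl values: 99.5% of 791260 uncapped values were whole within 0.05, and capped values (3.68%) count as lower bounds. A correction of the cKO values toward the fl/fl library was inferred from the values, and no source states it. Where a gene was detected in fewer than 40% of fl/fl members, it was removed by subtracting, per cKO cell, the 0.3 quantile over its 30 nearest cKO cells (30 principal components). Both steps were tested on simulated data.

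C1q-high cells had 2 or more C1q genes above 1 with the same keratin and neutrophil limits. Between sets, genes above zero in at least 5% of members or of the other set were compared, and called from 0.5. Between genotypes, genes above zero in at least 5% of all fl/fl members were compared, and called from 0.2. Genes found mainly in cKO members could not enter the genotype comparison. The planned monocyte-marker set also held cells with granulocyte precursor genes, so the narrower set was used. Named genes were the rule genes, the largest differences in each comparison, up to 4 per list, and markers of other types. Members, lists and limits were chosen with earlier results of these data known. Intervals of shares are Clopper-Pearson at 95%, and those of ratios are exact conditional binomial. Software was scikit-learn 1.9.0, scipy 1.17.1, matplotlib 3.10.9, pandas 2.3.3 and numpy 2.4.6 under Python 3.11.15. Results for some genes are not reported here.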

Additional observations from a re-analysis of the deposited data

How the results depend on the processing

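No paired analysis was possible because each genotype had 1 library. The member share of all cells stayed within its interval under every alternative tried in both libraries, and the median number of genes above zero in fl/fl members was 142, against 132 without the shared barcodes and 148 without the cells with non-myeloid markers. The member share of Arg1-positive cells was 45.8% in cKO and 39.3% in fl/fl with the definition at 0.5, 57.4% in fl/fl at 1.5, and 69.2% in cKO with zero levels from the nearest cKO cells. With the same zero levels the share of members and C1q-high cells was 40.4% in cKO, and it was 32.3% in fl/fl at 1.5. Genes past 0.2 between genotypes numbered 92, against 146 without the shared barcodes, 146 in members among macrophages and 140 with the shift removed by the 0.2 quantile over 50 nearest cells (all 3 added after seeing the data), and 276 called from 0.1. Of the 140, 132 were higher and 8 lower. Lists with a median past 0.1 numbered 2, against 1 with no filter, 5 in members with no C1q gene above 1, and 4 without the shared barcodes. Against C1q-high cells 62 genes were called, against 138 from 0.3 and 100 with Arg1 at most 1 in the C1q-high cells. Against the planned monocyte-marker cells 142 were called, and 267 from 0.3. Among named genes Slc7a2 turned to -0.14 with the shift removed and to -0.10 without the shared barcodes as well, where Tubb6 turned to -0.0086. Without the cells with non-myeloid markers Hbb-bs turned to 0.0054 and Hba-a2 to 0.0059. The cause of the other moves was not tested. Depth limits genes near the 3-count floor, and no value measures the spread between mice.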
